A study of Mus musculus with 9 samples.

Results

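The unstimulated arrays describe which genes cultured mouse microglia express when no stimulus is added. They are the 3 arrays labelled as unstimulated among the 9 of the series, and they were chosen by that label alone. The cells were primary cortical microglia of C57BL/6J mice that carry an intact cannabinoid receptor 2 gene (CB2+/+), taken at an age of 1 to 5 days and given no treatment. The labels state neither how long these cells were in culture, nor how microglia were separated from other brain cells, nor whether the arrays come from separate cultures, so the spread between arrays may be technical. The other 6 arrays hold the same kind of cells given interleukin-4 (IL-4) or lipopolysaccharide (LPS) with interferon-gamma (IFNγ) and are not compared here. No test was run, since these arrays are described without a comparison group, and the number of arrays limits the precision of every value.

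A gene was followed when a probe for it stood above background, with a detection p-value under 0.05 on all 3 arrays. This held for 13714 of the 45281 probes (30.3%), and of these 11914 carry 1 gene symbol, 6 carry several and 1794 carry none. The named probes stand for 7976 of the 19057 genes with a probe (41.9%), which is the share against which each gene list below is read. By the reference annotation 7863 of the 7976 genes are protein coding, 60 are long noncoding RNAs and 36 are transcribed pseudogenes. A level is the normalized log2 intensity of a gene's brightest detected probe, and ranks run from 1 for the brightest of the 7976 genes. Probes bind their targets with different strength, so ranks order brightness and not numbers of RNA molecules. For orientation, the median level of probes detected on no array was 4.44, the lowest level of a detected gene 4.90, the median of detected genes 7.99 and the level that bounds the brightest 797 genes 10.91.

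Microglia are the resident macrophages of the brain. They descend from yolk sac progenitors, depend on the receptor Csf1r for survival, and watch the tissue with receptors for nucleotides, lipids and the chemokine fractalkine. They engulf dying cells, synaptic material and protein aggregates and break them down in lysosomes, and they supply most of the complement protein C1q in the brain. In culture, away from signals of the brain such as transforming growth factor beta, microglia are known to lose part of their tissue-specific expression.

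The 3 arrays resembled each other, with replicate 2 somewhat apart. Mean intensities were 311, 345 and 372 for replicates 1, 2 and 3, and 15806, 16348 and 16435 probes were detected. Normalized levels correlated across detected probes at r = 0.980 between replicates 1 and 3, at 0.962 between replicates 1 and 2 and at 0.968 between replicates 2 and 3. These are correlations across probes, which are not independent replicates. The identifiers of all 3 arrays share a prefix, read here as the same slide, though no label names one. On that reading slide differences do not enter their spread. The SD of a gene over the 3 arrays had a median of 0.21 over the 7976 genes, and its percentile 95 was 0.65. Replicate 2 lay more than 1 log2 unit below the mean of the other arrays for 260 genes and above it for 130, against 60 and 141 for replicate 1 and 32 and 99 for replicate 3.

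The brightest genes combine the iron store and the protein synthesis machinery of any cell with the secreted, lysosomal and receptor genes of a macrophage. Fth1, the heavy chain of the iron store ferritin, ranked first with levels of 15.31, 15.19 and 15.31 on replicates 1, 2 and 3. Eef1a1, a translation elongation factor, followed at 15.04 ± 0.09 (SD, n = 3 arrays). The bactericidal lysozymes Lyz2 and Lyz1 ranked 3 and 5, at 15.04 ± 0.14 and 14.95 ± 0.09. They are near-identical neighbours on chromosome 10, so their probes may read both genes and the 2 ranks are uncertain. None of these 4 varied by more than 0.3 between arrays.

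Among the next ranks were Itm2b, a membrane protein that limits amyloid formation (14.87 ± 0.04), Laptm5, a lysosomal membrane protein of blood cells (14.81 ± 0.04), Psap, the precursor of the lysosomal saposins (14.77 ± 0.06), and Apoe, the main lipid carrier protein of the brain (14.77 ± 0.10; SD, n = 3). Tmsb4x, which binds actin monomers, ranked 10 at 14.74 ± 0.11. The C1q chain genes C1qb and C1qc ranked 11 and 12, at 14.64 ± 0.29 and 14.62 ± 0.43. The cysteine protease Ctsb (14.57 ± 0.07) and Fcer1g, the signalling chain of Fc receptors (14.55 ± 0.10), followed them.

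Of the 40 brightest named genes, 9 encode cytosolic ribosomal proteins, 2 are genes of the mitochondrial genome (CYTB and ND4) and 2 are annotated as pseudogenes (Ubb-ps and Gm6548), whose probes may read the functional copies. From the lysosomal list 5 genes belong to the same set, namely Psap, Ctsb, the asparaginyl protease Lgmn, the membrane protein Lamp1 and the mannosidase Man2b1. The SD of the 40 ranged from 0.04 to 0.82 with a median of 0.11. All 40 were among the 100 brightest on every array, and 30 were among the 40 brightest on every array. Lpl, lipoprotein lipase, had the widest spread, with 13.50, 15.13 and 14.44 on replicates 1, 2 and 3. It was lowest on replicate 1 and highest on replicate 2. By normalized levels, with 1 probe per gene, the 40 genes held 13%, 12.7% and 13.2% of the signal of all detected genes on the 3 arrays. The brightest 797 genes held 60.3%, 59.9% and 60.3%. Quantile normalization gives the arrays the same distribution, so the likeness of these shares does not measure agreement between arrays. Of the 100 brightest probes 34 carry no symbol, so part of the brightest signal has no gene name here.

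**Figure D1:**
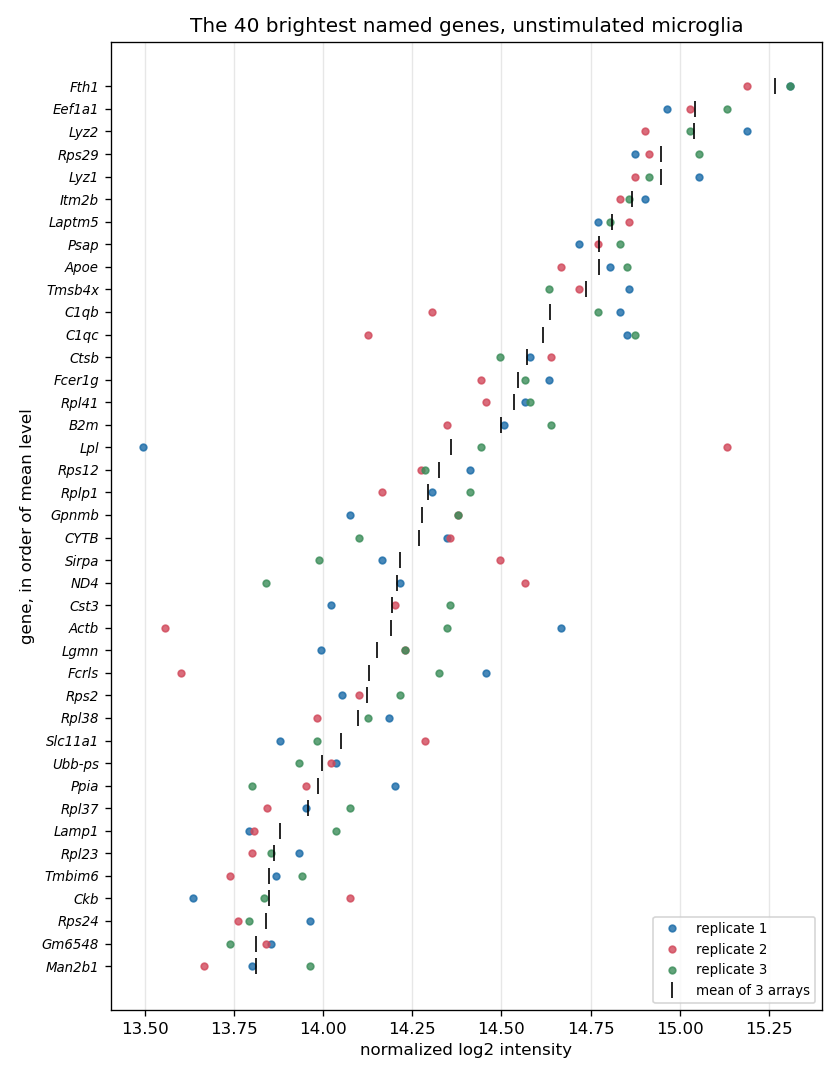
Normalized log2 intensity (x axis) of the 40 brightest named genes (y axis, in order of mean level) on each of the 3 unstimulated arrays (coloured points), with the mean as a tick. For most genes the points lie close together, and Lpl, Actb, Fcrls and C1qc are the most spread.

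The labelled cell type was compared with 6 microglial markers, and all 6 were detected and ranked among the brightest 797 genes. The lists were chosen with earlier results of these data known, and 5 border macrophage markers ranked there too. The comparison therefore describes the cells and does not test their identity. Cst3, the protease inhibitor cystatin C, had levels of 14.02, 14.20 and 14.36 on replicates 1, 2 and 3 (rank 24). Trem2, a lipid receptor of phagocytes, had 13.11, 13.72 and 13.37 (rank 65), and Tyrobp, its signalling adaptor, had 12.83, 13.08 and 13.16 (rank 102). These 3 genes were not lower on replicate 2 than on replicate 1. Csf1r, the receptor for colony-stimulating factor 1 and interleukin-34, had 13.31, 12.84 and 13.15 (rank 93). Cx3cr1, the fractalkine receptor, had 12.85, 11.96 and 13.01 (rank 161), and C1qa, the first chain of C1q, had 12.97, 11.70 and 12.85 (rank 188). Csf1r, Cx3cr1 and C1qa were lowest on replicate 2, C1qa by more than 1 log2 unit.

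The promoter windows of 5 such genes are shown so that the expressed loci can be seen, namely Cx3cr1, Trem2 and Cst3 of the markers and the brighter C1q genes C1qb and C1qc. Each window runs from 250 bases before to 50 bases after the gene's start in RefSeq on GRCm38.p6, is written 5′ to 3′ on the gene's strand, and lies for Cx3cr1 at chr9:120068247-120068546 (minus strand), for Trem2 at chr17:48346151-48346450 (plus strand), for Cst3 at chr2:148875463-148875762 (minus strand), for C1qb at chr4:136886151-136886450 (minus strand) and for C1qc at chr4:136892865-136893164 (minus strand). Capitals mark GAGGAA or its reverse complement, letters found in many binding sites of PU.1, the macrophage factor encoded by Spi1.
Cx3cr1: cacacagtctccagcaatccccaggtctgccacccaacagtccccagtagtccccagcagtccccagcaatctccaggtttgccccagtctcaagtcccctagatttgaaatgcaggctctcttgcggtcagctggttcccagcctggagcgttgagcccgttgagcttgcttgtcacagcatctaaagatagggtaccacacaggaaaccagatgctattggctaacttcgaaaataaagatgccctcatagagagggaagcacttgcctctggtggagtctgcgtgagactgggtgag
Trem2: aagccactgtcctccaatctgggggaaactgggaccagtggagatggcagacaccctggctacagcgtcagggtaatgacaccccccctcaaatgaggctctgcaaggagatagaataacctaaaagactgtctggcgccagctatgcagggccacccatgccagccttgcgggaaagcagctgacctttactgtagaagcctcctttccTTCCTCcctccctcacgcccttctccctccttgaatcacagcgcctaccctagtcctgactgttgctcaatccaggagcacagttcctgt
Cst3: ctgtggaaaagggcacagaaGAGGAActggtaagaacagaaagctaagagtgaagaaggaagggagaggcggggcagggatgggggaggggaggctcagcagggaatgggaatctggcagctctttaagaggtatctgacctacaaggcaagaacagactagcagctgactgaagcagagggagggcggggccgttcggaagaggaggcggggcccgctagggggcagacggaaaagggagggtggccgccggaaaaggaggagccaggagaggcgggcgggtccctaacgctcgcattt
C1qb: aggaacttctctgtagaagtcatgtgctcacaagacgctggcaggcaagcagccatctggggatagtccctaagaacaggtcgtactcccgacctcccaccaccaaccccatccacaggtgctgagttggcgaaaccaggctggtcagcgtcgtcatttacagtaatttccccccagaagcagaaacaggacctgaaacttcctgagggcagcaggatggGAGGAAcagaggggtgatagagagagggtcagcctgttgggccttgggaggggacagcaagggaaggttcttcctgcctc
C1qc: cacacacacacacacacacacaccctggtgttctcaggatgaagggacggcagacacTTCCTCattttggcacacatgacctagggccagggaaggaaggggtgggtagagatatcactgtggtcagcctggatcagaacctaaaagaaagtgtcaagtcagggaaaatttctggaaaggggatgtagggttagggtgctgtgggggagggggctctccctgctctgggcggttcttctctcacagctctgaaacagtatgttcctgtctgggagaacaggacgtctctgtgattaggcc
The letters begin 40 bases before the start in Trem2, 230 in Cst3, 30 in C1qb and 193 in C1qc, and are not in the Cx3cr1 window. They occur on either strand in 28.3% of all windows (7652 of 27025 genes, 1 window each), so a match is a description of these letters and not a binding site. TATAAA on the gene's strand between 40 and 16 bases before the start was in none of the 5 windows. It was in 17 of 649 windows of the brightest protein-coding genes (2.62%) and in 56 of 5877 of the other detected ones (0.953%), against 2.22% of all windows. The set of all windows is limited neither to protein-coding genes nor to genes with a probe, so it is an unlike set. For genes detected on no array fewer than 80% have a window (6476 of 8195), so that comparison is void.

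Genes of macrophages in general were detected without exception. All 15 measured pan-macrophage genes were detected (41.9% over all genes), and 11 ranked among the brightest 797. Besides Lyz2, Laptm5 and Fcer1g these included Sirpa, the receptor for the "do not eat me" signal CD47, at 14.22 ± 0.26, and Cd14, the co-receptor for LPS, at 13.70 ± 0.22 (SD, n = 3). Adgre1, which encodes the F4/80 antigen, stood at 12.56 ± 0.11 and Aif1, which encodes Iba1, at 11.34 ± 0.39. The integrin gene Itgam, which encodes CD11b, was dimmer, at 9.34, 7.28 and 8.63 on replicates 1, 2 and 3. Ptprc, which encodes CD45, was the dimmest of the list at 7.54 ± 0.22.

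Homeostatic microglia genes, those most characteristic of microglia in the intact brain, covered a wide range of levels. Of 24 measured, 20 were detected (83.3% against 41.9% over all genes), 7 ranked among the brightest 797, and 4 were detected on no array. Lgmn (14.15 ± 0.14), the Fc receptor-like gene Fcrls (14.13 ± 0.46), Gas6, a bridge between dying cells and their receptors (12.95 ± 0.19), and Tgfbr1, a receptor for transforming growth factor beta (12.13 ± 0.11), led the list. Below the median of the list Tmem119, a surface protein used to tell microglia from other macrophages, stood at 8.94, 6.85 and 9.40 on replicates 1, 2 and 3. P2ry12, the receptor for adenosine diphosphate that guides microglial processes, stood at 7.72, 5.87 and 7.17 and ranked 5485. Both were lowest on replicate 2, by more than 1 log2 unit. The 4 undetected genes were Siglech, a sialic acid receptor (4.65 ± 0.06), Entpd1, an ectonucleotidase (4.58 ± 0.11), Upk1b (4.42 ± 0.12) and the fructose transporter Slc2a5 (4.27 ± 0.02), all at the level of background.

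Transcription factors of macrophages and microglia were mostly detected at moderate levels. Of 18 measured, 15 were detected (83.3% against 41.9% over all genes) and 3 ranked among the brightest 797. Cebpb, a factor of inflammatory gene expression, stood at 12.66 ± 0.46, Mef2c, which restrains microglial activation, at 11.61 ± 0.43, Irf5 at 11.10 ± 0.44 and Id2 at 10.81 ± 0.21 (SD, n = 3). Outside the 4 brightest, the lineage factors Spi1 and Runx1 stood at 8.86 ± 0.26 and 8.61 ± 0.35, and Sall1, a factor of microglial identity, at 7.39 ± 0.35 (rank 4847). Bhlhe41 was detected on no array, Klf4 on 1 and Tfec on 2.

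**Figure D2:**
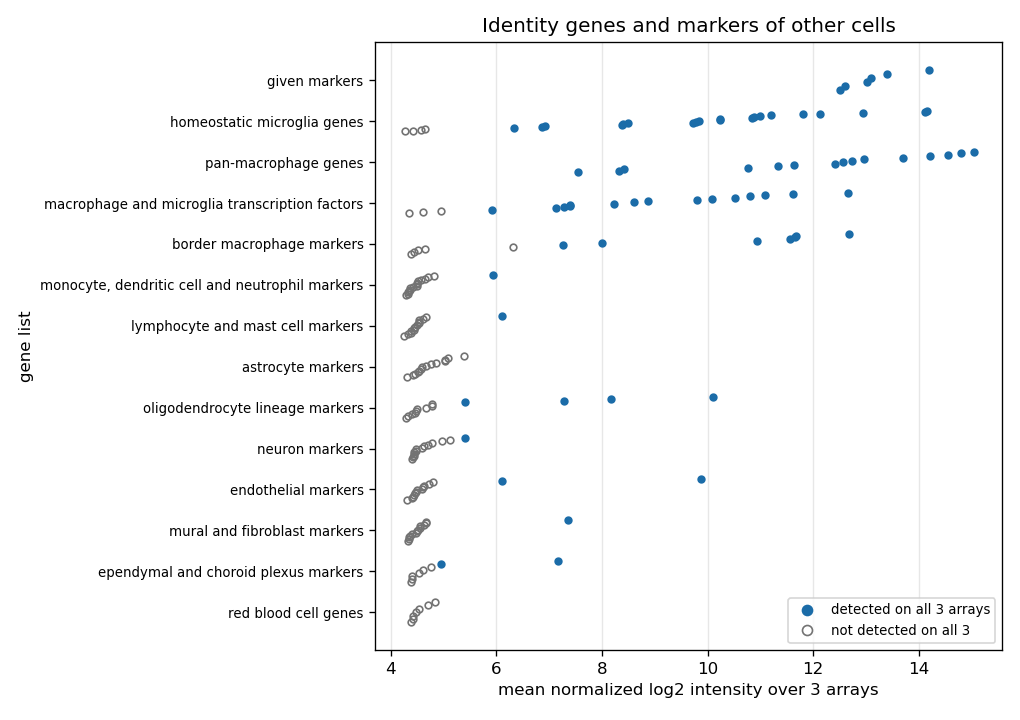
Mean normalized log2 intensity over the 3 arrays (x axis) of each measured gene of the identity lists and of the lists of markers of other cells (y axis); filled points were detected on all 3 arrays and open points were not. Identity genes spread from background to above 14, while most markers of other brain cells lie below 5.

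Genes that microglia raise around plaques, in damaged tissue and during phagocytosis were mostly detected in these unstimulated cells. Of 21 measured, 18 were detected (41.9% over all genes) and 10 ranked among the brightest 797. Apoe, Ctsb, Lpl and Gpnmb, a glycoprotein of phagocytes (14.28 ± 0.18), were among the 40 brightest of all genes. Outside the 4 brightest, Clec7a, the beta-glucan receptor Dectin-1, stood at 9.53, 10.56 and 10.78, and the cystatin gene Cst7 at 7.86, 6.64 and 9.52 on replicates 1, 2 and 3. Cst7 had the sixth largest range of all genes of at least median level, and its replicate 3 value was the one farthest from the others. Itgax, which encodes CD11c, and Cd5l were detected on no array and Csf1 on 1, and Spp1 was not measured under that symbol.

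The lysosome was among the most completely detected compartments. Of 26 measured cathepsins, hydrolases and lysosomal membrane proteins 25 were detected (96.2% against 41.9% over all genes) and 15 ranked among the brightest 797. Psap, Ctsb, Lgmn and Lamp1 (13.88 ± 0.14) led, and the 25 had a median level of 12.56. The bone cathepsin Ctsk was the 1 gene not detected on all 3 arrays, with 4.41, 5.06 and 5.17. The aspartic protease Ctsd, at 7.83 ± 0.32, and Ctsl, at 7.29 ± 0.63, were measured as dim.

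Of 14 measured genes of the complement system 9 were detected (64.3% against 41.9% over all genes, too close to be read as a difference with 14 genes). Besides C1qb, C1qc and C1qa, Cfp, which encodes properdin, a stabiliser of the alternative pathway, was bright on every array, with 14.13, 12.11 and 13.59 on replicates 1, 2 and 3. Its replicate 2 value lay more than 1 log2 unit below the others, as did that of C1qa. The activating factor gene Cfb (4.43 ± 0.05), the inhibitor gene Serping1 (4.51 ± 0.12), the receptor gene C3ar1 (4.52 ± 0.09) and Itgax (4.58 ± 0.21) were detected on no array, and C4b on 2.

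Receptors for antibodies and for uptake were nearly all present. Of 21 measured, 19 were detected (90.5% against 41.9% over all genes). They were led by Fcer1g and by the Fc gamma receptors Fcgr3 (12.70 ± 0.43) and Fcgr4 (12.39 ± 0.60) and the integrin Itgb5 (11.93 ± 0.37; SD, n = 3). The scavenger receptor genes Cd36 and Olr1 were not detected on all 3 arrays, with means of 4.53 and 4.48. Toll-like receptors and their partners were detected for 14 of 16 genes (87.5% against 41.9% over all genes). Cd14, the trafficking protein Unc93b1 (12.58 ± 0.07), Tlr2 (12.38 ± 0.85) and Tlr7 (11.64 ± 0.07) were brightest. Tlr2, a receptor for bacterial lipoproteins, had 12.90, 11.40 and 12.83 on replicates 1, 2 and 3, and was lowest on replicate 2, whereas Unc93b1 and Tlr7 hardly differed. Tlr3 and Tlr9, receptors for double-stranded RNA and for DNA, were each detected on 2 arrays.

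Of 9 measured purinergic and adenosine receptors 7 were detected (77.8% against 41.9% over all genes). P2ry6, the receptor for uridine diphosphate that triggers phagocytosis, stood at 12.53 ± 0.47 and the ATP-gated channel gene P2rx4 at 11.25 ± 0.19. P2ry13, another adenosine diphosphate receptor, had 10.56, 8.64 and 10.29, and Adora3 had 8.83, 7.37 and 8.79 on replicates 1, 2 and 3. Both were lowest on replicate 2, as P2ry12 was.

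Cnr2, the cannabinoid receptor of immune cells that the study's title names, was detected on every array, with 8.53, 8.0 and 8.51, a mean of 8.35 ± 0.30 (SD, n = 3) and rank 3499. Cnr1, the neuronal cannabinoid receptor, was detected on none (4.61 ± 0.07). Of 14 measured endocannabinoid genes 8 were detected (57.1% against 41.9% over all genes, too close to be read as a difference with 14 genes). They were led by Daglb, which makes 2-arachidonoylglycerol (11.93 ± 0.20), Abhd12, which hydrolyses it (10.89 ± 0.31), and the channel gene Trpv2 (9.73 ± 0.24). Dagla, Trpv1 and Gpr55 were detected on no array, Faah on 1 and Abhd6 on 2.

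Several chemokines and cytokines were bright without an added stimulus. Of 28 measured, 18 were detected (64.3% against 41.9% over all genes) and 7 ranked among the brightest 797. Ccl9, a chemokine of myeloid cells, stood at 12.98 ± 0.36 and Mif, a cytokine stored in many cells, at 12.82 ± 0.28. Ccl4, an inflammatory chemokine, had 11.28, 13.23 and 12.60, and Il1b, interleukin-1 beta, had 12.75, 11.19 and 12.26 on replicates 1, 2 and 3. Ccl4 was highest and Il1b lowest on replicate 2, so the list did not move one way there. Outside the 4 brightest, Tnf had 8.19, 8.27 and 7.61 and Il1a 5.31, 5.00 and 6.55. Il10 and Ifnb1 were detected on no array (4.38 ± 0.02 and 4.40 ± 0.17), and Il6 on 1. Ccl2, Ccl7, Il1rn and Cxcl13 were detected on replicates 1 and 3 and not on replicate 2.

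The listed genes of class I antigen presentation were all detected, and those of class II and costimulation in part. All 14 measured class I genes were detected, with B2m, the light chain, at 14.50 ± 0.15 and the heavy chain gene H2-D1 at 13.58 ± 0.13. Psme2 was the dimmest of the 14 at 5.16, near the 4.90 of the dimmest detected gene. Class I heavy chain genes resemble each other closely, so their probes may not be specific. Of 10 class II and costimulation genes 6 were detected (60% against 41.9% over all genes, too close to be read as a difference with 10 genes). They were led by the costimulator Cd86, with 10.97, 9.62 and 10.97, and the invariant chain Cd74, with 11.10, 8.84 and 10.86 on replicates 1, 2 and 3. The class II transactivator Ciita and the chain gene H2-Aa were detected on no array, and H2-Eb1 and Cd80 on 2 arrays each.

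Interferon-stimulated genes were detected for 16 of 18 measured (88.9% against 41.9% over all genes). Ifitm3, which blocks virus entry, had 13.75, 11.68 and 13.28 on replicates 1, 2 and 3, and Ifit3 and Oasl2 stood at 11.41 ± 0.40 and 11.21 ± 0.47 (SD, n = 3). Of the 16 detected genes 15 had a replicate 2 level below the mean of the other arrays. Of 16 measured genes of the IL-4 response 5 were detected (31.2% against 41.9% over all genes). With 16 genes these shares are too close to be read as a difference. The 5 were led by Tgm2, a transglutaminase, with 10.25, 8.44 and 10.53 on replicates 1, 2 and 3, and Pparg, a nuclear lipid receptor, with 7.10, 9.21 and 7.35. Replicate 2 was the low array for Tgm2 and the high one for Pparg. Arg1, arginase 1, was at background on replicates 1 and 2 (4.46 and 4.20) and at 7.70 on replicate 3, where it was detected. Its other probe was detected on replicate 1 as well. Socs2 and Cish were detected on 2 arrays each, and Retnla, Chil3, Ccl17, Ccl22 and Pdcd1lg2 on none.

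**Figure D3:**
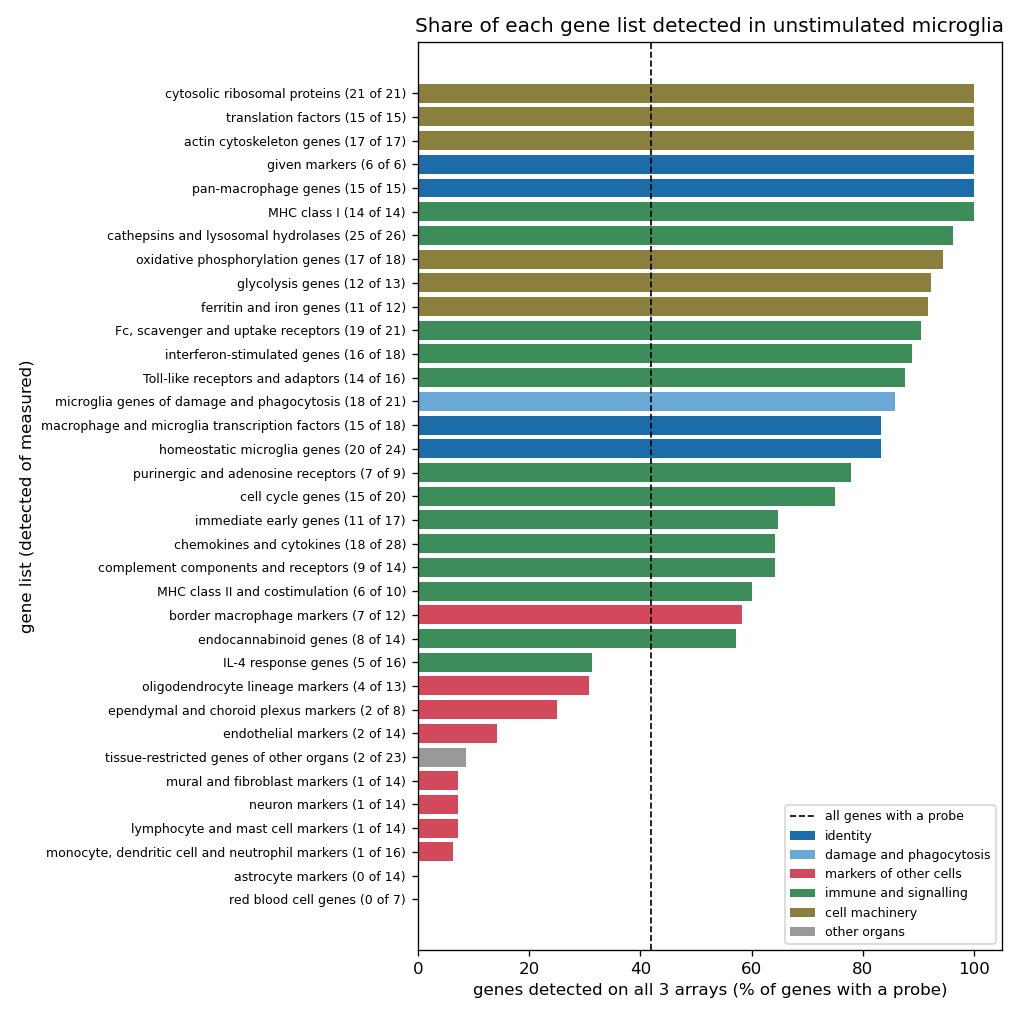
Share of the measured genes of each list that were detected on all 3 unstimulated arrays (x axis, percent), by list (y axis, with counts) and coloured by kind of list; the dashed line marks the 41.9% over all genes with a probe. Lists of cell machinery and of pan-macrophage genes reach or approach 100%, and lists of other brain and blood cells lie below the line, border macrophage markers excepted.

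Few markers of other cells were detected, border macrophage markers excepted. Over the 9 lists without border macrophages 12 of 114 measured markers were detected, or 10.5% against 41.9% over all genes, and 80 were detected on no array. None of the 12 ranked among the brightest 797 genes, while Mbp, Flt1 and Cnp lay above the 7.99 median of detected genes. As a yardstick, 2 of 23 genes restricted to other organs were detected, Cela1 (8.10 ± 0.33) and Krt10 (6.70 ± 0.28). In RNA from bulk cultures, fewer cells of a type and less RNA per cell cannot be told apart.

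No astrocyte marker of 14 was detected on all 3 arrays. Gja1, the gap junction protein connexin 43, came closest with 6.08, 4.46 and 5.62, and Gfap, the astrocyte filament, had 4.77, 4.61 and 5.72 on replicates 1, 2 and 3. Gja1 was thus above background on replicates 1 and 3 and Gfap on replicate 3. Aldoc was detected on 2 arrays (5.54, 4.67 and 5.07 on replicates 1, 2 and 3) and Aldh1l1, Slc1a3 and Sox9 on 1 each. The other 8 markers, among them the water channel Aqp4 (4.46 ± 0.07), were detected on none. The log2 of the summed background-corrected and normalized signal of the 14 markers was 7.68, 6.68 and 7.64, lowest on replicate 2.

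Of 13 oligodendrocyte lineage markers 4 were detected (30.8% against 41.9% over all genes, too close to be read as a difference with 13 genes). Mbp, which encodes myelin basic protein and has transcripts in blood cells too, stood at 10.10 ± 0.07 and Cnp, a phosphodiesterase of myelin, at 8.17 ± 0.45, with Mag at 7.73, 6.54 and 7.56 on replicates 1, 2 and 3 and Cspg4 at 5.40 ± 0.28. Mog, Mobp, Sox10, Olig2, Cldn11 and Ugt8a were detected on no array, while Olig1 was detected on 2 (4.99, 4.36 and 5.0 on replicates 1, 2 and 3) and Pdgfra on 1. Of 14 neuron markers Syp was detected, at 5.41 ± 0.12, while 9 others, among them Snap25, Tubb3, Syt1, Dcx, Gad1 and Slc17a7, were detected on no array. Rbfox3, with 5.08, 4.62 and 5.18, and Elavl4, with 4.87, 5.21 and 5.26, were detected on 2 arrays each, and Stmn2 and Map2 on 1 each.

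Of 14 endothelial markers Flt1, a receptor for vascular endothelial growth factor that macrophages also express, was detected with 9.01, 10.81 and 9.79 on replicates 1, 2 and 3, and Pecam1 with 6.62, 5.39 and 6.27. The endothelial genes Cldn5, Cdh5 and Tie1 were detected on no array, and Kdr, another receptor for that growth factor, on 2 (5.01, 4.95 and 4.45). Of 14 mural and fibroblast markers Acta2, smooth muscle actin, was detected, with 9.34, 6.07 and 6.67. It was high on replicate 1 alone, while Tagln, Myh11, Pdgfrb, Rgs5, Dcn and Lum were detected on no array. Col1a1 was detected on 1 array, with 5.20, 4.43 and 4.36 on replicates 1, 2 and 3, and thus was also highest on replicate 1. Abcc9 was detected on 1 array as well, with 4.53, 4.93 and 4.55. The ependymal and choroid plexus list had 2 of 8 detected, Rarres2 (7.16 ± 0.14) and Foxj1 (4.95 ± 0.09). With 8 genes its 25% is too close to the 41.9% over all genes to be read as a difference. None of 7 red blood cell genes was detected on all 3 arrays.

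Among blood cell markers S100a8 was detected, with 6.12, 5.0 and 6.66, of 16 monocyte, dendritic cell and neutrophil genes, and Cd79b, with 6.66, 5.02 and 6.66, of 14 lymphocyte and mast cell genes. Both were lowest on replicate 2, and both, with Cspg4 and Foxj1, no longer counted as detected with a detection p-value under 0.01 on every array. Ccr2, the receptor of inflammatory monocytes, S100a9, Flt3 and Ngp were detected on no array, nor were Cd3d, Cd4, Cd8a, Ms4a1, Ncr1 and Nkg7. Plac8, Zbtb46 and Elane of the former list and Cd3e of the latter were detected on 1 array each. Border macrophage markers, which mark macrophages of the meninges and vessels, were detected for 7 of 12 (58.3% against 41.9% over all genes, too close to be read as a difference with 12 genes). Of these 7, 5 were among the brightest 797 of the 7976 detected genes. Ms4a7 stood at 12.69 ± 0.41, the mannose receptor Mrc1 at 12.75, 10.76 and 11.53, the scavenger receptor Stab1 at 11.66 ± 0.19 and the platelet factor gene Pf4 at 12.61, 10.04 and 12.05. Mrc1 and Pf4 were highest on replicate 1 and lowest on replicate 2. Lyve1, Cd163, Cbr2 and Cd209f of the same list were detected on no array, and F13a1 had 7.42, 4.52 and 6.97, detected on replicates 1 and 3. The list was thus split, and whether such cells were in the cultures was not tested.

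Machinery common to all cells was detected almost completely. All 21 measured cytosolic ribosomal protein genes were detected and 19 ranked among the brightest 797, with Rps29 (14.95 ± 0.09), Rpl41 (14.53 ± 0.07), Rplp1 (14.29 ± 0.12) and Rps2 (14.12 ± 0.08) brightest. All 15 translation factors and all 17 actin cytoskeleton genes were detected as well. Of 13 glycolysis genes 12 were detected, led by Pkm (13.67 ± 0.07) and Gapdh (12.58 ± 0.28), and of 18 oxidative phosphorylation genes 17, led by Atp5b (13.37 ± 0.09) and Cox4i1 (12.83 ± 0.10; SD, n = 3).

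Iron handling was detected for 11 of 12 genes (91.7% against 41.9% over all genes). After Fth1 came Slc11a1, the phagosomal metal transporter (14.05 ± 0.21), transferrin, Trf (13.65 ± 0.25), and the ferritin light chain Ftl1 (13.48 ± 0.22). Outside the 4 brightest, the iron exporter Slc40a1 had 11.48, 13.70 and 11.28 on replicates 1, 2 and 3, and Hmox1, which frees iron from haem, had 10.87, 12.08 and 10.22. Both were highest on replicate 2. Hamp, the hormone that removes the exporter from the membrane, was detected on no array (4.57 ± 0.18).

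Of 20 measured cell cycle genes 15 were detected (75% against 41.9% over all genes) with a median level of 6.82, below the 7.99 of all detected genes. Ccnd1, cyclin D1, was brightest at 11.62 ± 0.19, and the replication genes Mcm6 and Mcm5 stood at 8.64 ± 0.36 and 8.57 ± 0.34. The mitotic genes outside the 4 brightest were highest on replicate 3, with Plk1 at 6.38, 6.35 and 7.72 and Cdc20 at 6.41, 5.87 and 7.70. Of 17 immediate early genes, which respond to handling and to many stimuli, 11 were detected (64.7% against 41.9% over all genes). Zfp36 stood at 12.33 ± 0.45 and Fos at 11.54 ± 0.22, while Hspa1a, Hspa1b, Fosb and Btg2 were detected on no array.

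Genes that varied most between the arrays did so mainly through replicate 2. Of the 7976 detected genes 718 (9.0%) had a range over 1 log2 unit and 93 a range over 2. Among the 100 widest of the 3988 genes of at least median level, replicate 2 was the array farthest from the others for 72, and the low one for 52 of these. Socs3, a feedback inhibitor of cytokine signalling, had 9.15, 5.58 and 9.95 on replicates 1, 2 and 3. Ccl12, a monocyte chemokine, had 11.04, 6.70 and 10.71, and Spint1, a protease inhibitor, had 11.16, 7.57 and 11.16. All 3 were far lower on replicate 2 than on either other array. The lipase gene Aoah, which inactivates LPS, had 10.69, 7.15 and 9.66, Ier3 had 11.39, 8.35 and 11.06, and Tgfbi, a matrix protein, had 11.68, 9.30 and 12.08. Chst1 and Nupr1 were lowest on replicate 2 as well (7.40 and 6.69), whereas the haem-sensing repressor Bach1 was highest on replicate 1, at 9.94, 7.29 and 8.41.

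**Figure D4:**
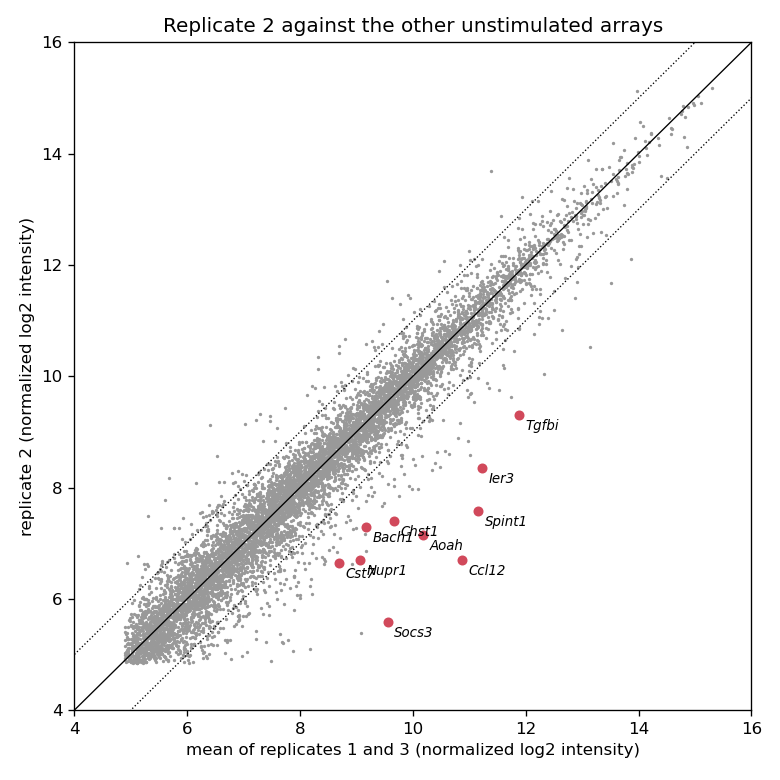
Level of each of the 7976 detected genes on replicate 2 (y axis) against the mean of replicates 1 and 3 (x axis), both as normalized log2 intensity; the solid line marks equality, the dotted lines 1 log2 unit, and red points the 10 genes with the largest range. All 10 red points lie below the line of equality, Socs3 and Ccl12 farthest.

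By list, the detected border macrophage markers had a median replicate 2 level 1.24 below the mean of the other arrays (a difference of -1.24, with -1.44 for purinergic receptors, -1.10 for class II and costimulation, -0.74 for complement, -0.69 for chemokines and cytokines, -0.65 for homeostatic microglia genes and -0.59 for interferon-stimulated genes), against 0.00 over all detected genes. The iron list stood at 0.35 and the damage and phagocytosis list at 0.02. Lists share genes, and the part of cell makeup, for which the border macrophage markers are given, in the other differences was not tested.

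Some genes failed the rule on replicate 2 alone. Of genes with no probe detected on all 3 arrays, 256 had a probe detected on replicates 1 and 3 and not on 2, against 194 that lacked replicate 3 and 383 that lacked replicate 1. Named by level after their values were seen, the brightest of the 256 was Fn1, fibronectin, a matrix protein that macrophages and fibroblasts secrete, with 10.33, 4.81 and 12.29 on replicates 1, 2 and 3. Ppbp, a platelet chemokine gene beside Pf4, had 8.55, 4.44 and 7.93. Both were at background on replicate 2 and well above it on the other arrays. The brightest gene that lacked replicate 1 was Serpinb6b with 4.5, 7.92 and 6.25, and that which lacked replicate 3 was Spic with 5.71, 6.49 and 4.51.

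Gaps between probes of the same gene were often wide. Between arrays, 93 of the 7976 detected genes had a range over 2 log2 units. Of the 2838 genes with 2 or more detected probes, the brightest and the dimmest differed by a median of 1.62 log2 units, a 3.08-fold difference in intensity, and 41.6% differed by more than 2 log2 units. Actb, beta-actin, had the widest gap, from 5.12 to 14.19 over 5 probes, followed by Lyz1 (6.49 to 14.95) and the RNA-binding protein Ybx1 (5.20 to 13.58). Pkm, Rpl38, Rps24, Sdcbp and Lyz2 had gaps between 7.71 and 8.04. A low rank therefore need not mean little RNA, and 3348 detected genes (42.0%) also have a probe that was not detected on all 3 arrays.

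**Figure D5:**
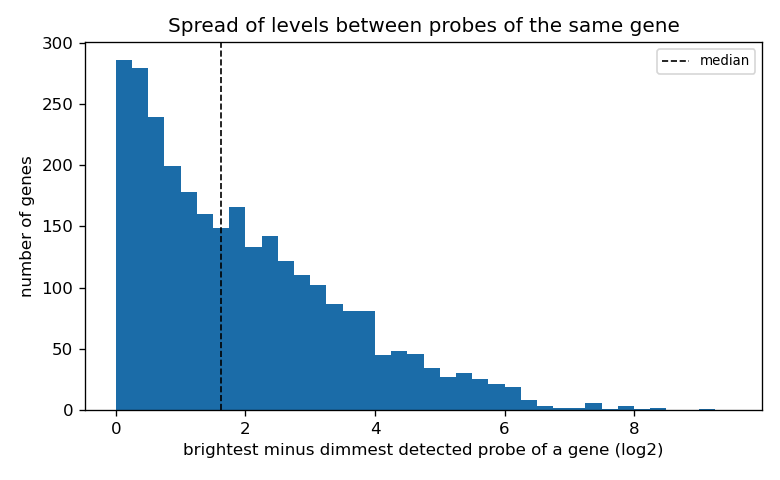
Number of genes (y axis) by the difference in mean level between the brightest and the dimmest detected probe of the gene (x axis, log2), for the 2838 genes with 2 or more; the dashed line is the median of 1.62. The distribution reaches beyond 9, where Actb lies.

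At the edge of the detection rule, 16 probes just inside shared a highest detection p-value of 0.0491, and 25 probes just outside shared one of 0.0502. The first 3 of each set by probe identifier are given as examples. Inside, their mean levels were 5.17, 4.97 and 4.97, and the last is a probe of Abca1, a cholesterol exporter, with 5.02, 4.85 and 5.04 on replicates 1, 2 and 3. Outside, they were 5.12, 5.06 and 5.20, the latter 2 for probes of Kmt5b and Phf21b. The values on the 2 sides overlap.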

How the data were processed

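RNA was labelled as biotinylated cRNA and read on Illumina bead arrays, per the labels' protocols and the probe identifiers. The authors deposited linear intensity values for every probe, neither background-subtracted nor scaled between arrays, judging by the values. Beside it they deposited a detection p-value, which ranks each probe against background in steps of 1 in 936. They also deposited a table of log2 values, whose making is not given in the sources used here. Its scale and centring stay unknown, its column medians on the 3 arrays are 6.94, and it correlated with the levels used here at r = 0.972 on each of them across detected probes. The submitters' processing notes name Partek without a role.

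From these, R 4.3.3 and limma 3.58.1 were used on the 3 unstimulated arrays alone. Background was removed by normexp, with an offset of 16 and with background parameters that limma infers by means of the detection p-values. Quantile normalization of the log2 values followed. The steps were tested on simulated data. Symbols came from the annotation supplied with the probes, brought up to date by gene number (34807 of 34885 probes with 1 symbol matched RefSeq). Each gene is represented by its detected probe with the highest mean, and a gene not detected on all arrays by its brightest probe. Of the 607 entries of 35 gene lists 552 have a probe. Named genes are the 40 brightest, the 6 markers, in each list the 4 brightest detected and up to 6 undetected members, the 10 largest ranges, the 8 widest gaps between probes, the probes at the threshold and Cnr2. Other list members are named for their known role and were chosen with their values in view. The members and lists were chosen with earlier results of these data known. No array was left out. The alternatives were another detection threshold, fewer arrays, no background correction, other normalizations, the deposited table, another rule for the probe of a gene, and leaving out each replicate.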

Additional observations from a re-analysis of the deposited data

How the results depend on the processing

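All 40 of the brightest genes stayed among the 40 brightest with detection p under 0.01, detection on at least 2 arrays, no background correction, quantile normalization over all 9 arrays and median centring. In the deposited log2 values 37 stayed and with the mean of a gene's detected probes 29. Without 1 replicate 37 to 39 stayed. The median SD between arrays was 0.133 without background correction and 0.121 in the deposited table and 0.287 with median centring, against 0.211, and the cause was not tested. Without 1 replicate it ranged from 0.148 to 0.187, lowest without replicate 2. Detected probes numbered 12499 with the stricter threshold and 15645 with 2 arrays, and detected genes 7496 and 8793 (14212 to 14572 probes and 8170 to 8359 genes without 1 replicate). Identity genes detected ranged from 56 to 57 of 63 and markers of other cells from 15 to 26 of 126, against 56 and 19. Of 138 named genes, the percentile among detected genes moved by more than its SD between arrays for 75 with the mean of probes, 25 in the deposited table, 18 with 2 arrays, 9 to 12 without 1 replicate, 7 of 133 with the stricter threshold (S100a8, Cd79b, Cspg4, Foxj1 and Il4ra were then not detected), 2 with median centring, and 1 each without background correction and over 9 arrays. Fth1 is counted at least with the stricter threshold and with 2 arrays, although its percentile stayed at 100. With the mean of probes Tgfbr1 went from 96.6 to 64.5, and without replicate 2 Socs3 went from 54.3 to 75.1. No paired analysis was possible because 1 group was described. Signal over background limits the ranks of genes near the threshold.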

Other observations

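Genes that mark the sex of cells were looked at after the other results were known. Xist, the RNA that silences an X chromosome in female cells, was detected on all 3 arrays by each of its 4 probes, the brightest at 10.75, 11.18 and 10.05 on replicates 1, 2 and 3. Eif2s3y, a gene of the Y chromosome, was also detected on all 3 arrays, at 7.33, 8.09 and 7.63 by its brighter probe. Kdm5d was detected on replicates 2 and 3 by 1 of 2 probes (4.48, 6.07 and 5.47), and Uty on replicate 3 by 1 of 4 probes. The labels give neither the sex of the pups nor whether they were pooled.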
